A study of Mus musculus with 26 samples.

Results

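Collagen chain genes encode the polypeptides that assemble into the collagens of the extracellular matrix, and they were followed here on Affymetrix arrays of mouse neural stem cells. The members were all genes whose array annotation gives a symbol made of Col, a number, a and a number, read on probe sets that name that symbol alone. The rule used no measured value and found 43 of the 23152 genes measured, with 1226 probe sets among them. They comprise 11 fibrillar collagens, 8 basement membrane collagens and 24 others, of which 9 are fibril-associated, 6 form beaded filaments, 4 span the cell membrane and 5 form networks, anchoring fibrils or other structures. Col4a3bp, whose symbol begins alike, names no collagen chain and was not a member.

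The cells came from E14.5 embryos of wild-type C57BL6 mice, and every group received lentivirus. In 18 arrays, cells of 3 numbered pools over-expressed MYBtr, MYBQKI5, MYBQKI6 or QKItr, with 1 array per pool, or the fluorescent protein eGFP as the control, with 2 arrays per pool that were averaged. In 8 further arrays, cells that over-expressed MYBQKI6 also had Qk suppressed (5 arrays) or LacZ, a bacterial gene used as a control target (3 arrays). MYBQKI is a fusion of the transcription factor MYB with the RNA-binding protein QKI that is known from a childhood glioma, QKI5 and QKI6 name splice forms, and Qk is the mouse gene of QKI. The labels do not say what a pool holds, what tr stands for, which promoter drove the constructs, or whether numbered samples came from separate embryos or cultures, so p-values measure only the spread between these samples.

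Collagen chains wind around each other in triple helices. Fibrillar collagens then pack into the tension-bearing fibres of bone, skin, tendon and cartilage, type IV collagens form the flexible net of basement membranes, and fibril-associated, beaded filament, anchoring and transmembrane types join these to cells and to each other. In the developing brain, collagens are known mainly from the basement membranes of the pial surface and of blood vessels, which vascular, mural and meningeal cells help to make, and some transmembrane types are known from neurons.

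The constructs and cells were checked first. Myb averaged 7.23, 6.99 and 7.46 (log2 signal, n = 3 pools each) with MYBtr, MYBQKI5 and MYBQKI6, against 4.62 with eGFP, and Qk read 9.35, 9.30, 9.46, 9.70 and 9.58 on the Qk suppression arrays, against 9.68, 9.70 and 9.74 on the LacZ suppression arrays. These Qk suppression values are of arrays 5_2, 6_1, 6_3, 9_1 and 9_3 in this order, and the labels do not say what the first number means. All but array 9_1, at 9.70, lay below every LacZ array. The groups thus overlapped through array 9_1. All 5 arrays were fitted as 1 group, and the Qk difference of -0.22 was not called (limma adjusted p = 0.999). Results of this comparison are those of arrays labelled as suppressed. Of 9 neural stem cell markers, 5 (Sox2, Vim, Fabp7, Slc1a3 and Nes) lay above the 90th percentile of all genes and 1 (Prom1) below the 25th. Other lineages had bright markers too: Olig1 and Olig2 of 6 oligodendrocyte lineage markers and Map2 of 6 neuronal markers lay above the 90th percentile, and Notch3 of 8 pericyte and mural markers above the 75th. None of 7 endothelial or 11 fibroblast and meningeal markers lay above the 75th percentile, and 6 and 7 of them lay below the median. Array medians ran from 5.61 to 5.74 in the construct arrays and from 5.39 to 5.51 in the suppression arrays, so values were compared only within a set.

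Type IV collagen genes sit head to head in pairs, and Col4a1 and Col4a2, the chains found in nearly all basement membranes, start from a shared stretch of DNA. The RefSeq windows of 300 bases around their starts (GRCm38.p6, most of each window lying before the start) overlap by 78 bases and are shown because the 2 genes are the main basement membrane pair and 1 probe set of Col4a2 carries the clearest construct difference below. Capitals mark the MYB core motif AACNG on either strand. Col4a1 is at chr8:11312777-11313076 on the minus strand and Col4a2 at chr8:11312555-11312854 on the plus strand.
Col4a1: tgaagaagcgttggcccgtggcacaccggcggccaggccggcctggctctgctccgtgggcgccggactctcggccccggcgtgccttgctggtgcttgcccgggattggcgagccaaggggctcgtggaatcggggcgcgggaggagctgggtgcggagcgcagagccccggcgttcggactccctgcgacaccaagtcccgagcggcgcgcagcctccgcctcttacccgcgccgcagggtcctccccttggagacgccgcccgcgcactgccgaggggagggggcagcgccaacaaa
Col4a2: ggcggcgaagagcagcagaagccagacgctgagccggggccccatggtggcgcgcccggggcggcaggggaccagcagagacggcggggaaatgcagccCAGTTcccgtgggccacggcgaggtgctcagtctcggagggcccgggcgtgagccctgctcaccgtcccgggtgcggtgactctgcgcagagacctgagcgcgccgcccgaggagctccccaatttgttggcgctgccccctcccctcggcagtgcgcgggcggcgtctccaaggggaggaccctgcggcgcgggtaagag
The Col4a1 window held 0 matches and the Col4a2 window held 1, on the reverse strand. Windows were found for 35 of the 43 members, 38 windows in all. AACNG stood in 28 of them (73.7%), beside 80.3% of the 32851 windows of all genes, and its subset AACGG in 7 (18.4%), beside 17.4%. A match to so short a motif describes the letters of a window and is no binding site.

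The collagen genes had middling to low signal in these cells. In the construct arrays none of the 43 lay below the 25th or above the 75th percentile of all gene means (3.78 and 6.89 on the log2 scale), 26 lay below the median and 17 above it. The level of a gene here is a mean over 4 to 55 probe sets, which draws it towards the middle, and probes differ in brightness, so ranks among genes are descriptions only. Probe set by probe set, 60 of 1226 (4.89%) exceeded the 75th percentile of all probe sets, 16 of the 43 genes had none that did, and the highest share, 24.0%, belonged to Col27a1, a minor fibrillar collagen of cartilage.

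Above the median of all genes stood 7 of 11 fibrillar collagens, 1 of 8 basement membrane collagens (Col4a1) and 9 of 24 others. These are counts, without a test between the classes. Among the fibrillar group Col27a1 (mean 6.08) and Col11a1, a chain of the type XI collagen that nucleates cartilage fibrils, were highest, and Col1a2, a chain of the type I collagen of bone and skin, was lowest at 4.53. In the basement membrane group the range ran from 3.88 for Col4a4, known from the kidney filter, to 5.24 for Col4a1. In the whole family the lowest mean was 3.82 for Col14a1, a fibril-associated collagen (percentile 26.0), and the highest was 6.18 for Col6a1, a chain of the beaded filaments of type VI collagen (percentile 65.1). Col14a1 read 4.08, 3.69 and 3.63 with MYBtr, 4.30, 3.86 and 3.62 with MYBQKI5, 3.99, 3.90 and 3.82 with MYBQKI6, 4.03, 3.87 and 3.51 with QKItr, and 3.89, 3.73 and 3.44 with eGFP in pools 1, 2 and 3. Its groups overlapped throughout, and pool 1 was high in every group.

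**Figure D1:**
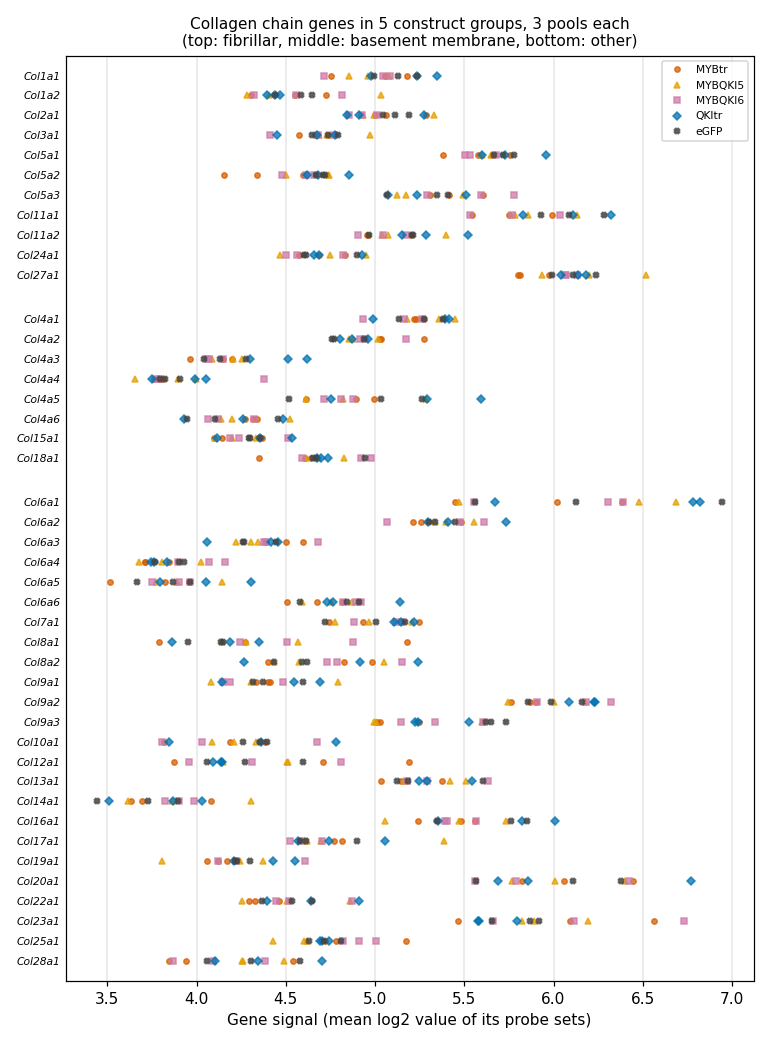
Signal of the 43 collagen chain genes (x axis, mean log2 value of the probe sets of a gene) in the 5 construct groups, with 1 point per group and pool. Fibrillar genes are at the top, basement membrane genes in the middle and other collagens at the bottom, and within nearly every gene the points of the 5 constructs are intermixed.

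The first question was what the MYB and QKI constructs do to collagen expression. No collagen chain gene was called, at a limma adjusted p under 0.05 over all 23152 genes, in any of the 8 construct comparisons. Over all genes the calls against eGFP were 317 (1.37%) for MYBtr, 46 (0.199%) for MYBQKI5, 177 (0.765%) for MYBQKI6, 0 (0%) for QKItr and 464 (2%) for the 3 MYB constructs averaged, and 0 (0%) in each of the 3 pairs of MYB constructs. With the pool as a block the calls over all genes were 1383 (5.97%), 609 (2.63%), 1017 (4.39%), 0 (0%) and 1638 (7.07%) against eGFP and 0 between MYB constructs, and again 0 of 43 collagens were called. At the background shares without the block a family of this size holds few calls or none, so a count of 0 in that fit does not set the collagens apart from other genes. With the block the shares were higher, and whether 0 of 43 lies below them was not tested.

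The intervals give a range for the difference in mean signal of each gene, taken 1 gene at a time. A single probe set can differ by more, as for Col4a2 below. The 95% confidence interval of the log2 difference from eGFP stayed within -1 to 1, a 2-fold change either way, for 42 of 43 genes (MYBtr), 43 (MYBQKI5), 41 (MYBQKI6) and 42 (QKItr). Col6a1 was the exception with MYBtr (-1.16 to 0.63) and with QKItr (-0.69 to 1.11), and Col6a1 (-1.03 to 0.77) and Col8a1 (-0.13 to 1.06) with MYBQKI6. These intervals are from the fit without the pool as a block. They therefore include the differences between pools described below, which were largest for Col6a1. For the 3 MYB constructs averaged all 43 intervals lay within the bounds. Most genes of any kind did so too: 89.6% (MYBtr), 91.1% (MYBQKI5), 90.3% (MYBQKI6), 94.8% (QKItr) and 93.3% (average) of all genes. Differences between the 2 eGFP arrays of one pool give a scale: their median size was 0.18 over 129 collagen values, beside 0.15 over all genes.

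At an unadjusted p under 0.05, 3 collagens differed with MYBtr (Col4a2, Col5a2 and Col9a3, beside 9.44% of all genes), 1 with MYBQKI5 (Col9a3, beside 6.8%), 0 with MYBQKI6 (beside 7.82%) and 1 with QKItr (Col4a3, beside 1.56%). For the 3 MYB constructs averaged there was 1, Col9a3 (beside 9.8% of all genes). These counts are from the fit without the block. With it they were 4 (MYBtr), 1 (MYBQKI5), 4 (MYBQKI6), 1 (QKItr) and 2 (average). Beside them stood 17.2%, 13.5%, 14.6%, 4.6% and 17.4% of all genes. The median difference over the 43 genes was -0.07 for MYBtr, 0.01 for MYBQKI5, 0.00 for MYBQKI6 and 0.06 for QKItr, beside -0.01 over all genes with MYBtr, MYBQKI5 and QKItr and 0.00 with MYBQKI6. With MYBtr 13 of 43 differences were positive (30.2%, beside 47.1% of all genes), and among the fibrillar genes 1 of 11 (Col5a3, 0.17), with a fibrillar median of -0.09. None of these 11 was called at an adjusted p under 0.05. With QKItr 30 of 43 were positive (69.8%, beside 48.3% of all genes). Of the 11 fibrillar genes 2 were positive with MYBQKI6 (median -0.10) and 1 for the 3 MYB constructs averaged, but 5 with MYBQKI5 and 6 with QKItr. With the brightest probe set for each gene the collagen medians were -0.09 for MYBtr, 0.14 for MYBQKI5, -0.05 for MYBQKI6 and 0.19 for QKItr, so the small shifts of the family depend on how a gene is summarised. The 4 comparisons share the same eGFP arrays.

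**Figure D2:**
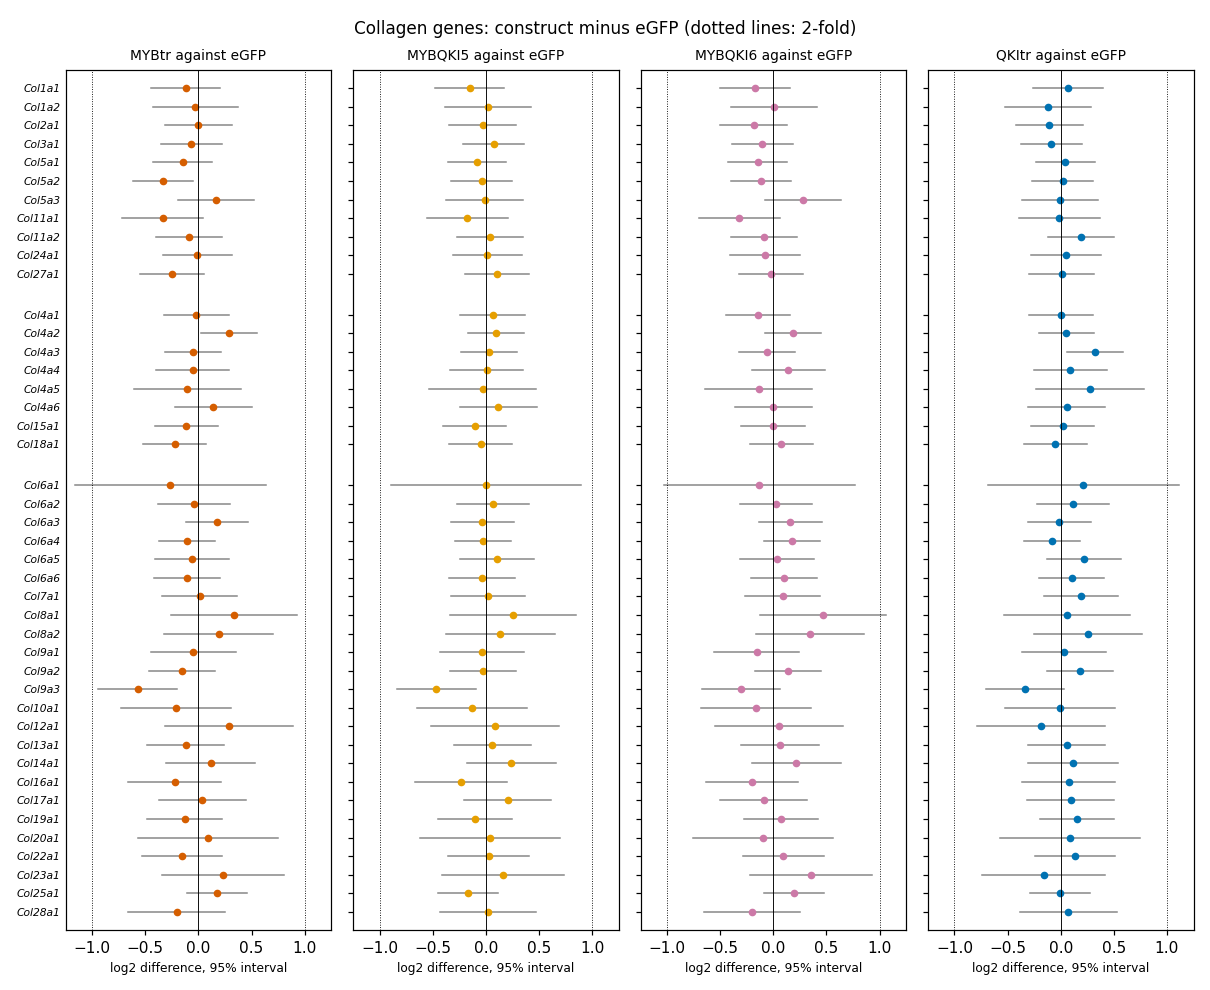
Log2 difference of each collagen chain gene from eGFP (points, x axis) with its 95% confidence interval (lines) for MYBtr, MYBQKI5, MYBQKI6 and QKItr, n = 3 pools per group. Dotted lines mark a 2-fold difference either way, and nearly all intervals span 0 and stay within them.

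Col9a3, a chain of the fibril-associated type IX collagen that coats cartilage fibrils, was the member with the smallest adjusted p. Its signal in pools 1, 2 and 3 was 5.03, 5.01 and 5.25 with MYBtr, 5.60, 5.01 and 4.99 with MYBQKI5, 5.60, 5.15 and 5.34 with MYBQKI6 and 5.22, 5.53 and 5.24 with QKItr, against 5.62, 5.73 and 5.65 with eGFP. Every construct column lay below every eGFP column, and pool 1 of MYBQKI5 and of MYBQKI6, both at 5.60, came nearest to eGFP of that pool, at 5.62. Each eGFP column is a mean of 2 arrays, which differed by 0.11, 0.06 and 0.28 in pools 1, 2 and 3. The separation thus holds for averages, and single eGFP arrays did not all lie above every construct column. The 3 MYB constructs averaged differed from eGFP by -0.45 (95% confidence interval -0.75 to -0.15, limma adjusted p = 0.157, and 0.060 with the pool as a block). MYBtr alone differed by -0.57 (adjusted p = 0.162, and 0.056 with the block), MYBQKI5 by -0.47 (adjusted p = 0.502), MYBQKI6 by -0.30 (adjusted p = 0.826) and QKItr by -0.34 (adjusted p = 1). Pool 1 of MYBQKI5 decided the call: without it the averaged difference was -0.52 with an adjusted p of 0.035. The sister chains of the same helix, Col9a1 and Col9a2, had no unadjusted p under 0.05 in any comparison without the block.

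Groups that do not overlap can be counted for every gene. MYBtr and eGFP did not overlap for 6 collagens, higher with MYBtr for Col4a2 and lower for Col5a2, Col9a3, Col18a1, Col19a1 and Col27a1 (14.5% of all genes did not overlap). MYBQKI5 lay below eGFP for Col5a1, Col9a3 and Col25a1 (11.2% of all genes). MYBQKI6 lay above eGFP for Col8a1, Col8a2 and Col25a1 and below it for Col2a1, Col5a2 and Col9a3 (13.1%), and QKItr above for Col4a3 and below for Col9a3 (6.79%). Columns of all 3 MYB constructs together lay apart from eGFP for 1 collagen, Col9a3, which was lower (4.37%). These shares of the collagens are near those of all genes. Each eGFP column is a mean of 2 arrays, and some of these groups overlapped when single eGFP arrays were read. In pool 1 the 2 eGFP arrays differed by 0.64 for Col8a1, 0.52 for Col8a2 and 0.41 for Col25a1, and single eGFP arrays of these genes overlapped with MYBQKI6.

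Col5a2, a chain of the type V collagen that sets the width of type I fibrils, read 4.60, 4.34 and 4.15 with MYBtr against 4.67, 4.71 and 4.72 with eGFP. The groups did not overlap, pool 3 of MYBtr was lowest, and the difference of -0.34 (95% confidence interval -0.62 to -0.05) had an adjusted p of 0.370. Col11a1 differed by -0.34 with MYBtr (-0.72 to 0.04, adjusted p = 0.628) and by -0.32 with MYBQKI6 (-0.70 to 0.06, adjusted p = 0.813). The chains of type I collagen, Col1a1 and Col1a2, differed by -0.12 and -0.03 with MYBtr, and Col3a1, which forms fine fibres with them, by -0.07, all with intervals that span 0.

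Col8a1, which with Col8a2 forms a short-chain network collagen of the cornea and vessels, had the largest positive difference of the 43 genes with MYBQKI6, 0.46 (-0.13 to 1.06), and Col8a2 differed by 0.34 (-0.17 to 0.85). Col8a1 read 4.88, 4.24 and 4.50 with MYBQKI6 against 3.95, 4.14 and 4.15 with eGFP, and 5.18, 3.79 and 4.27 with MYBtr, so the MYBtr columns spread on both sides of eGFP. Neither gene was called (adjusted p = 0.867 and 0.948), and they rest on 5 and 6 probe sets. The 2 eGFP arrays of pool 1, averaged here, differed by 0.64 for Col8a1 and by 0.52 for Col8a2.

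The rest of the family gave no unadjusted p under 0.05 in any of the 9 comparisons without the block, 35 of the 43 genes in all. Among them were Col7a1, the anchoring fibril collagen of skin, Col10a1, of growth plate cartilage, Col15a1, of the basement membrane zone, Col17a1, of the hemidesmosomes that fix epithelia to their base, and the less studied Col13a1, Col16a1, Col22a1, Col28a1 and Col6a5. Col17a1 read 4.77, 4.81 and 4.60 with MYBtr, 5.39, 4.70 and 4.62 with MYBQKI5, 4.71, 4.52 and 4.59 with MYBQKI6 and 5.06, 4.57 and 4.74 with QKItr, against 4.90, 4.58 and 4.61 with eGFP. Its groups overlapped, and pool 1 held the highest value of each group but MYBtr. Col13a1, Col17a1 and Col28a1 were among the genes that differed by pool, described below.

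The next question was whether the 3 MYB constructs differ from each other. No collagen and no other gene was called in any pair, at a limma adjusted p under 0.05. At an unadjusted p under 0.05, 3 collagens differed between MYBQKI5 and MYBtr (Col5a2, Col25a1 and Col27a1, beside 3.67% of all genes), 1 between MYBQKI6 and MYBtr (Col6a4, beside 2.61%) and 1 between MYBQKI6 and MYBQKI5 (Col25a1, beside 1.74%). These are counts without the block. With it each of these pairs gave 3, beside 8.32%, 6.21% and 4.39% of all genes. Non-overlapping groups were found for 3 collagens (Col4a2, Col6a3 and Col25a1, all lower with MYBQKI5) between MYBQKI5 and MYBtr, beside 6.68% of all genes. Between MYBQKI6 and MYBtr there were 4 (Col6a4, Col6a6, Col9a2 and Col27a1, all higher with MYBQKI6), beside 7.01%, and between MYBQKI6 and MYBQKI5 there were 2 (Col6a3 and Col25a1, both higher with MYBQKI6), beside 5.2%.

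Col25a1, a transmembrane collagen of neurons, had the smallest unadjusted p of the collagens between the 2 fusions without the block. It read 4.91, 5.00 and 4.82 with MYBQKI6 against 4.60, 4.62 and 4.43 with MYBQKI5, a difference of 0.36 (0.08 to 0.64, adjusted p = 1), and 5.17, 4.78 and 4.72 with MYBtr. The MYBQKI5 columns were lowest in this gene, below eGFP at 4.81, 4.72 and 4.63 in every pool. When its brightest probe set stood for the gene the direction turned, to -0.35 for MYBQKI6 against MYBQKI5 and to 0.49 for MYBQKI5 against MYBtr, and neither value was called (adjusted p = 1 for both).

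Col4a2 differed by 0.29 with MYBtr (0.03 to 0.55, adjusted p = 0.442), with 5.27, 5.03 and 5.03 with MYBtr against 4.76, 4.94 and 4.77 with eGFP. One of its 39 probe sets, 17498984, differed far more than the gene mean. It read 4.03, 3.83 and 4.70 with MYBtr, 1.42, 1.73 and 1.19 with MYBQKI5, 1.74, 1.49 and 1.41 with MYBQKI6 and 2.29, 1.80 and 1.93 with QKItr, against 2.45, 2.26 and 2.83 with eGFP. The MYBtr columns stood apart above all others, and both fusions lay below eGFP in every column. In a limma fit over all 269751 probe sets it rose by 1.68 with MYBtr against eGFP (adjusted p = 0.024, and 0.025 with the block), where 0.185% of all probe sets were called and 0.533% with the block. Between MYBQKI5 and MYBtr it was lower by 2.74 with MYBQKI5 (adjusted p = 0.034, and 0.157 with the block), and it was the 1 probe set called there (0.000371%; with the block 0 were, 0%). Between MYBQKI6 and MYBtr its difference was -2.64 (adjusted p = 0.053, and 0.087 with the block). All these values are low on a scale that begins at 0.22, and the other probe sets of Col4a2 were not called.

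A probe set of Col18a1, the basement membrane collagen from which endostatin is cut, went the other way with MYBtr. Probe set 17242261 read 1.77, 1.71 and 2.39 with MYBtr against 3.40, 4.64 and 4.77 with eGFP, without overlap, while the other constructs ran from 3.57 to 5.68. The difference of -2.31 had an adjusted p of 0.110, and 0.027 with the block. No other collagen probe set was called in any comparison, with or without the block. Of all probe sets 0.0652% were called against eGFP for MYBQKI5, 0.113% for MYBQKI6, 0.00222% for QKItr and 0.356% for the 3 MYB constructs averaged (0.118%, 0.301%, 0.00222% and 1.1% with the block), and 0% between MYBQKI6 and either other MYB construct and between Qk and LacZ suppression. Where the probes lie within these genes was not analysed here.

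**Figure D3:**
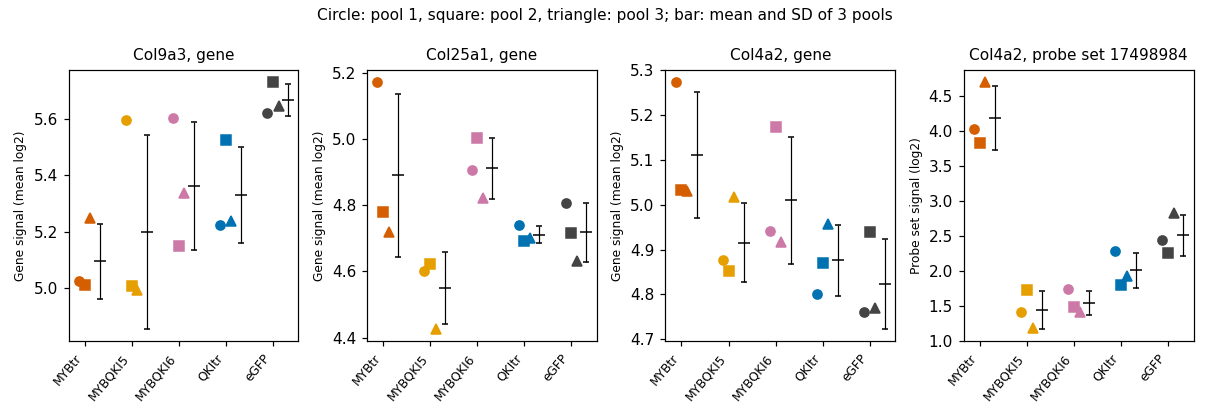
Log2 signal by construct for Col9a3, Col25a1 and Col4a2 (gene means) and for probe set 17498984 of Col4a2, with 1 point per pool (circle, square and triangle for pools 1, 2 and 3) and the mean and SD of 3 pools as bars. The eGFP points of Col9a3, each a mean of 2 arrays, lie above the points of every construct. The MYBtr points of the Col4a2 probe set, 3.83 to 4.70, lie above all others.

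The 3 chain pairs that share a start region did not vary alike across the 15 columns, as a description without a test. Pearson's r was 0.06 for Col4a1 and Col4a2, 0.22 for Col4a3 and Col4a4, and -0.71 for Col4a5 and Col4a6, the 2 type IV genes of the X chromosome, and over the 8 suppression arrays 0.51, 0.25 and -0.41. The columns of one pool share their number, so these points are not independent. Col4a3 read 4.62, 4.30 and 4.51 with QKItr against 4.13, 4.28 and 4.04 with eGFP, without overlap of these columns, and its difference of 0.33 (0.06 to 0.59) had an adjusted p of 1. The 2 eGFP arrays averaged in pool 2 differed by -0.42, the first minus the second.

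More collagens were called for the pool number than for any construct, by tests that are not alike. A pool holds 5 columns and a construct 3, and the construct fit without the block leaves the pool differences in its spread. With construct in the model, a limma F-test of the pool number called 16 of the 43 collagens, beside 34% of all genes, so the share among collagens (37.2%) is near the background. They were 4 fibrillar, 2 basement membrane and 10 other genes, with pool 1 highest on average for 11 and lowest for 5. When the brightest probe set stood for each gene, 8 were called (18.6%), beside 25.1% of all genes. Pool and any handling of the arrays by pool cannot be told apart.

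Col6a1 differed most between pools (adjusted p = 2.63e-05). It read 5.45, 6.38 and 6.02 with MYBtr, 5.47, 6.69 and 6.48 with MYBQKI5, 5.55, 6.39 and 6.30 with MYBQKI6, 5.67, 6.78 and 6.82 with QKItr and 5.56, 6.95 and 6.13 with eGFP in pools 1, 2 and 3. Pool 1 was lowest in all 5 groups, by 1.10 on average against pool 2. Its partner chain Col6a2 ran the other way (adjusted p = 0.038), with pool 2 lower than pool 1 by 0.30 on average. Col20a1, a fibril-associated collagen, was highest in pool 2 in all 5 groups, at 6.45, 6.40, 6.42 and 6.77 with MYBtr, MYBQKI5, MYBQKI6 and QKItr and 6.38 with eGFP (adjusted p = 4.51e-04). Pools 1 and 3 of that gene lay between 5.56 and 6.11.

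Col23a1, a transmembrane collagen, was highest in pool 1 with each construct, at 6.57, 6.20, 6.73 and 5.79 with MYBtr, MYBQKI5, MYBQKI6 and QKItr and 5.92 with eGFP (adjusted p = 0.0086). Among the fibrillar genes called for pool were Col5a3 (adjusted p = 0.0051), Col1a1 (adjusted p = 0.037), Col11a1 and Col11a2. The rest were Col4a5, Col4a6, Col8a2, Col12a1, Col13a1, Col14a1, Col17a1 and Col28a1, with adjusted p from 0.0033 to 0.036. Col12a1, a fibril-associated collagen of tendon and skin, ran from 3.88 in pool 1 to 5.19 in pool 2 among the MYBtr columns, while its QKItr columns stayed within 4.09 to 4.14. Across pools the mean log2 signal over the 11 fibroblast and meningeal markers ran from 4.56 to 4.95 in pool 1, 4.49 to 4.67 in pool 2 and 4.41 to 4.59 in pool 3. None of these markers lay above the 75th percentile of all genes, and their part in the pool differences was not tested.

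**Figure D4:**
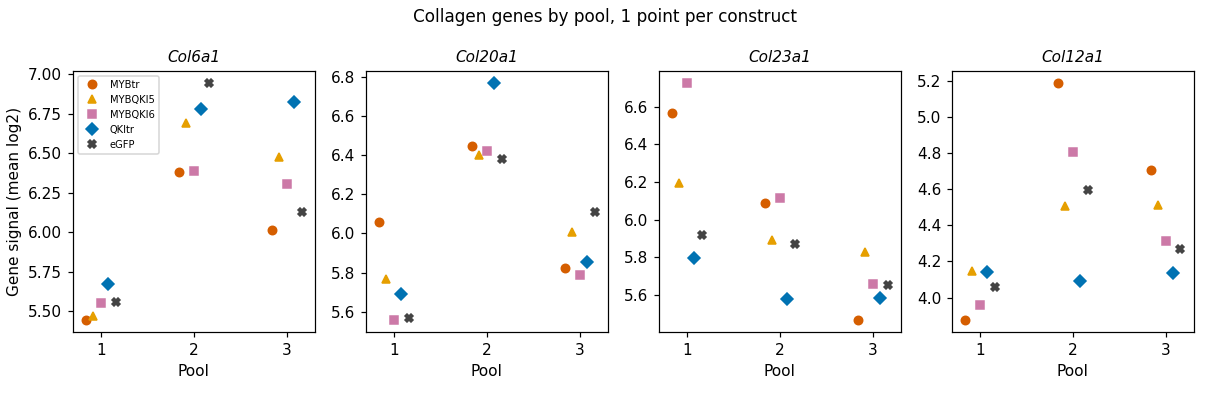
Log2 signal of Col6a1, Col20a1, Col23a1 and Col12a1 by pool (x axis), with 1 point per construct. For Col6a1 all 5 points of pool 1 lie between 5.45 and 5.67, below every point of pools 2 and 3.

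The last comparison asked what suppressing Qk adds in cells that carry MYBQKI6. No collagen chain gene was called between Qk and LacZ suppression (limma, with or without the block), and 1 of 23152 genes was (0.00432% with or without the block). The 95% confidence interval lay within -1 to 1 for 42 of 43 collagens (beside 94.3% of all genes), with Col20a1 reaching 1.00. At an unadjusted p under 0.05 without the block there was 1, Col8a1 (beside 4.09% of all genes). It read 4.29, 4.29, 4.51, 4.18 and 4.00 with Qk suppression against 3.86, 3.96 and 3.84 with LacZ suppression. The 5 Qk arrays all lay above the 3 LacZ arrays, the difference was 0.36 (0.03 to 0.70), and the adjusted p was 0.999. It was the 1 collagen whose groups did not overlap (beside 3.39% of all genes).

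The collagen differences between Qk and LacZ suppression leaned upwards, at 34 of 43 positive with a median of 0.09, beside 55.5% positive and a median of 0.03 over all genes. By class 10 of 11 fibrillar, 4 of 8 basement membrane and 20 of 24 other genes were positive. The median collagen signal of an array was 4.77, 4.79, 4.88, 4.76 and 4.80 on the Qk arrays against 4.65, 4.53 and 4.89 on the LacZ arrays. The third LacZ array was thus the highest and the second the lowest of all 8. The size of this shift varied with single arrays: without LacZ array 2 the median was 0.01, without LacZ array 3 it was 0.17, and after quantile normalization it was 0.04. With the brightest probe set for each gene it turned to -0.03.

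Col1a2 and Col3a1, 2 chains of fibrous connective tissue, differed by 0.22 (-0.17 to 0.61) and 0.24 (-0.09 to 0.58). Col6a1 had the lowest difference, -0.24 (-0.61 to 0.12). Col9a3 read 4.94, 5.01, 5.22, 5.32 and 5.04 with Qk suppression against 5.20, 5.31 and 5.32 with LacZ suppression, a difference of -0.17 (-0.49 to 0.15). By the second number of the sample names, 1 collagen was called, Col20a1 (adjusted p = 0.0049, beside 5.98% of all genes). It read 5.73 and 6.44 with Qk suppression and 6.16 with LacZ suppression on arrays numbered 1, and 4.50 to 5.31 on the others. With the brightest probe set this gene was not called, nor was any other collagen, and 0.0648% of all genes were.

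**Figure D5:**
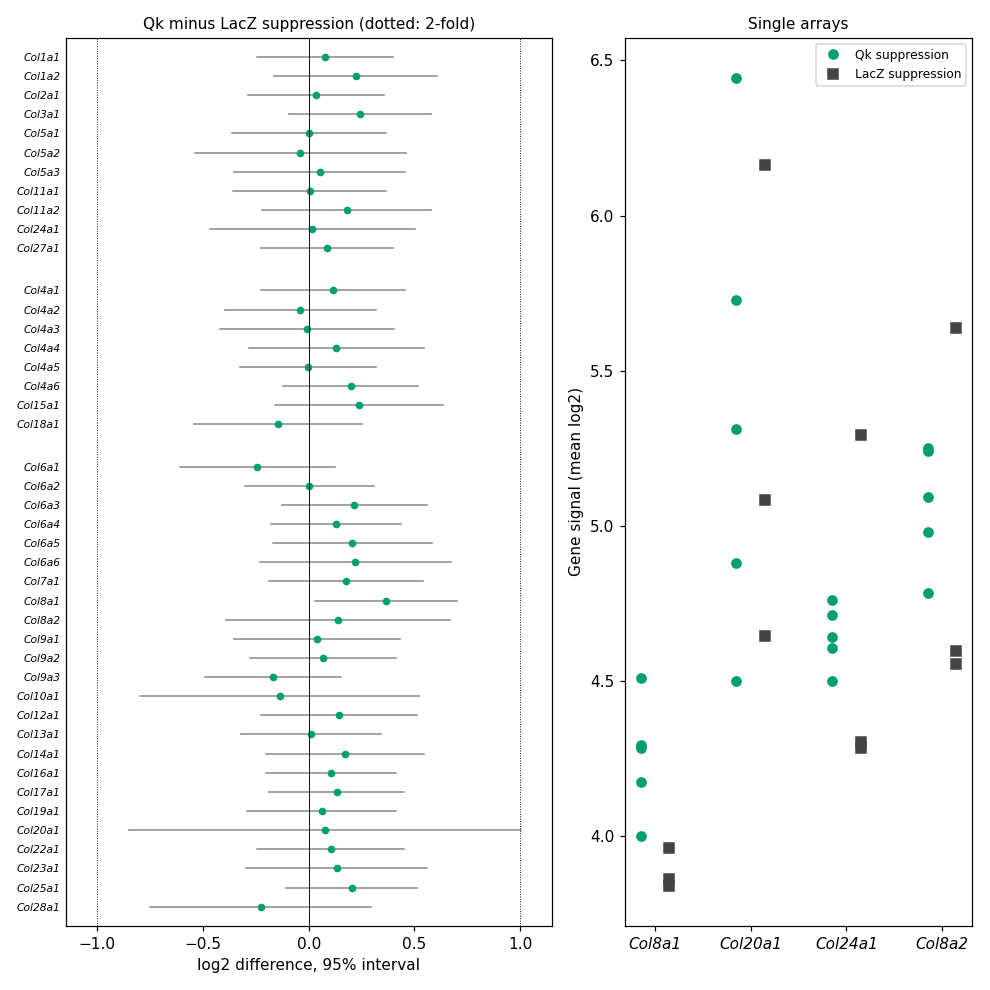
Left, log2 difference of each collagen chain gene between Qk and LacZ suppression with its 95% confidence interval, in cells with MYBQKI6 (5 and 3 arrays), with dotted lines at a 2-fold difference. Right, the single arrays of Col8a1, whose groups did not overlap, and of Col20a1, Col24a1 and Col8a2, whose groups did.

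Collagen also depends on the enzymes that make, fold and crosslink it, on receptors and on proteases. Of 32 listed genes of synthesis, folding and crosslinking 31 were measured, and without the block 1 rose with MYBtr (beside 1.37% of all genes called). None of the 10 receptors or 12 degradation genes was called with any construct or with Qk suppression, without the block. Shares of all genes called were 0.00432% for Qk suppression, 0% for QKItr, 0.765% for MYBQKI6, 0.199% for MYBQKI5 and 2% for the average. At such shares lists of 10 to 31 genes hold few calls or none. The counts without the block therefore do not set these lists apart from other genes. Loxl3, a lysyl oxidase that crosslinks collagen and elastin, rose by 0.92 with MYBtr (95% confidence interval 0.56 to 1.28, adjusted p = 0.017) and by 0.61 for the 3 MYB constructs averaged (adjusted p = 0.032). It read 7.73, 7.69 and 7.36 with MYBtr, 6.84, 7.27 and 7.07 with MYBQKI5, 7.12, 7.35 and 7.10 with MYBQKI6 and 6.51, 6.84 and 7.04 with QKItr, against 6.53, 6.76 and 6.72 with eGFP. The columns of all 3 MYB constructs lay above every eGFP column.

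With the pool as a block more of these genes passed for the 3 MYB constructs averaged: 2 synthesis genes rose and 6 fell, 2 receptors fell and 2 degradation genes fell, beside 7.07% of all genes called. For MYBtr alone the block gave 2 rises and 4 falls among the 31 synthesis genes, 1 fall among the 10 receptors and 2 among the 12 degradation genes, beside 5.97% of all genes. For MYBQKI5 it gave 1 rise and 2 falls among the synthesis genes, no receptor and 1 fall in degradation (beside 2.63%), and for MYBQKI6 1 rise and 2 falls, 1 receptor fall and 1 degradation fall (beside 4.39%). Adamts14, a protease that trims procollagen, read 8.48, 9.08 and 8.42 with MYBtr, 7.55, 9.08 and 9.07 with MYBQKI5 and 7.80, 9.40 and 8.37 with MYBQKI6, against 5.61, 8.27 and 7.57 with eGFP in pools 1, 2 and 3. Each MYB construct was above eGFP of the same pool, and the averaged difference of 1.43 had an adjusted p of 0.0044 with the block and 0.344 without it. The 6 that fell with the block were Serpinh1, the collagen chaperone HSP47 (-0.37, adjusted p = 0.047), the procollagen processing enhancers Pcolce (-0.41, 0.038) and Pcolce2 (-0.39, 0.013), the collagen-binding protein Sparc (-0.58, 0.023), and the collagen-modifying enzymes Colgalt2, listed by the array as Glt25d2 (-0.83, 0.0013), and P3h2, listed as Leprel1 (-0.73, 0.015). None of the 6 was called without the block, with adjusted p from 0.351 to 0.700.

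Mmp2, a protease that cleaves type IV collagen and gelatin, fell with the block under each MYB construct. It read 4.28, 5.05 and 5.27 with MYBtr, 4.45, 5.02 and 4.79 with MYBQKI5 and 4.78, 4.97 and 4.83 with MYBQKI6, against 5.34, 5.80 and 5.71 with eGFP. All 9 MYB columns lay below the 3 eGFP columns. The averaged difference of -0.79 had an adjusted p of 0.0012 with the block and 0.062 without it. Ddr1, a receptor tyrosine kinase that binds collagen, differed by -0.84 (adjusted p = 0.0074 with the block, 0.085 without), and Lair1, an inhibitory immune receptor for collagen, by -0.52 (0.033 with, 0.272 without). The other degradation gene that fell with the block was Timp2, an inhibitor of these proteases (-0.39, adjusted p = 0.018, and 0.165 without).

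Markers of cell types moved beside these genes for the 3 MYB constructs averaged. In this comparison 2% of all genes were called without the block and 7.07% with it. Of 6 oligodendrocyte lineage markers 2 fell without the block, and 3 fell and 1 rose with it, with a list median of -0.37. Cspg4, the NG2 proteoglycan of oligodendrocyte precursors, fell by 1.30 (adjusted p = 0.0080, and 2.86e-04 with the block), the lineage factor Olig2 fell by 0.62 (0.021, and 0.0063 with the block), Olig1 differed by -1.11 (0.0023 with the block, 0.074 without) and Pdgfra by 0.67 (0.031 with, 0.302 without). The mean over the 6 markers ran from 6.98 to 7.21 with MYBtr, 7.12 to 7.20 with MYBQKI5 and 7.02 to 7.19 with MYBQKI6, against 7.48 to 7.62 with eGFP, so the groups did not overlap. Of the 9 neural stem cell markers, Nes fell by 1.04 (adjusted p = 0.017, and 6.13e-04 with the block) and Vim rose by 0.46 (0.048, and 0.0025 with the block). Notch3, the 1 marker called with the block of 8 pericyte and mural markers, differed by 0.53 (0.020 with the block, 0.869 without). The macrophage and microglia marker Cd68 differed by -1.06 (adjusted p = 6.1e-04 with the block, 0.147 without), and the fibroblast marker Ogn by 1.64 (0.042 with, 0.14 without). They were the 1 called of 7 and the 1 called of 11 markers of their lists. The mean over the 7 microglial and immune markers ran from 4.16 to 4.22 with MYBtr, 4.28 to 4.44 with MYBQKI5 and 4.32 to 4.45 with MYBQKI6, against 4.37 to 4.52 with eGFP, and 4 of the 7 lay below the 25th percentile of all genes. That over the 11 fibroblast and meningeal markers ran from 4.43 to 4.82, 4.52 to 4.95 and 4.59 to 4.82 with MYBtr, MYBQKI5 and MYBQKI6, against 4.41 to 4.56 with eGFP. Their part in these results was not tested. With QKItr, between MYB constructs and between Qk and LacZ suppression, no gene of the synthesis, receptor and degradation lists was called with or without the block.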

How the data were processed

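Total RNA of mouse neural stem cells was biotin-labelled by the standard protocol of the array maker, per the labels. The authors deposited log2 signal (their values span 0.22 to 14.6), with 1 value per probe set and array. How the authors normalized them is not given in the sources used here, and the 2 sets of arrays had medians of their own, so no comparison crossed the sets.

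Of 269751 probe sets, 233753 named 1 gene symbol, 5106 several and 30892 none. Probe sets naming a gene alone were averaged to give its value, with no filter on dim signal, which gave 23152 genes. All 43 collagen symbols are current in RefSeq, and none of their 1226 probe sets is shared with another symbol. Emid2, whose current name is Col26a1, was left out by the rule on annotation symbols. Both eGFP arrays of each pool were averaged first, so 15 columns of 5 construct groups were fitted together, and the 8 suppression arrays apart, in limma 3.58.1 under R 4.3.3 with data.table, version 1.17.8. Genes were called at a Benjamini-Hochberg adjusted p under 0.05 over all genes of a comparison. The fits were tested on simulated data. All members were named. Those with the lowest and highest level in the construct arrays were given values in every construct column, and some others in the groups compared. Promoter windows are those of RefSeq (GRCm38.p6). Python 3.11.15 and matplotlib 3.10.9 drew the figures.

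The members, classes and pathway lists were chosen with earlier results of these data known, and the test of the pool number was added after seeing the data. Pool and second numbers come from the sample titles. Deviations from the group means correlated at 0.31 to 0.72 in the 30 pairs of columns that share a pool number (median -0.23 in 60 other pairs), and at 0.22 to 0.57 in the 5 pairs of suppression arrays that share a second number (median -0.21 in 10 others), so the number was also fitted as a block. Where pairs that share a number correlate, taking out group means by itself makes the other pairs negative. The other pairs are therefore no separate comparison. Alternatives were the block, the brightest probe set for a gene, dim genes left out, quantile normalization, single eGFP repeats and each replicate left out in turn. The number of arrays limits the precision.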

Additional observations from a re-analysis of the deposited data

Results flagged for a closer look

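In the 5 Qk suppression arrays, 4 of 43 collagen genes had 1 array far from the others, by a gap over range above Dixon's critical value of 0.71. For independent normal values chance flags about 1 in 20 such groups. Arrays that share a second number correlate, and the share of all genes flagged was not computed. This count therefore does not set the collagens apart from other genes. Col1a2, a chain of type I collagen, read 5.02 on array 9_3, where the next array read 4.52, and Col6a5, a beaded filament chain, read 4.39 on array 6_3, where the next read 3.98. Col19a1, a fibril-associated collagen, read 4.40 on array 6_3, where the next read 4.08. Col6a3, another beaded filament chain, was low on array 6_1 at 3.99, where the next read 4.34. Groups of 3 were not tested this way.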

How the results depend on the processing

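The count of 0 collagens called held in all 9 comparisons under the replicate block (0 of 43), quantile normalization, dim genes left out (42 collagens tested between Qk and LacZ suppression) and the brightest probe set, and in the 5 comparisons against eGFP with either eGFP repeat alone. Leaving out replicates gave 0 to 1 for the 3 MYB constructs averaged against eGFP, the 1 being Col9a3 without MYBQKI5 replicate 1 (-0.52, adjusted p = 0.035), and 0 elsewhere. Of 140 alternative values of the 12 gene differences followed, 135 kept direction and call and 4 turned, all with the brightest probe set: Col25a1 to 0.49 and Col5a2 to -0.094 for MYBQKI5 against MYBtr, Col6a4 to -0.015 for MYBQKI6 against MYBtr, and Col25a1 to -0.35 for MYBQKI6 against MYBQKI5. The cause was not tested. Counts over all genes moved more: with MYBtr 317 became 1383 with the block and 96 with the brightest probe set, with MYBQKI5 46 became 609 and 18, with MYBQKI6 177 became 1017 and 41, and for the average 464 became 1638 and 197. Leaving out 1 replicate gave 52 to 456 with MYBtr, 11 to 32 with MYBQKI5, 23 to 244 with MYBQKI6 and 113 to 598 for the average, lowest without MYBtr pool 2, MYBQKI5 pool 3, MYBQKI6 pool 2 and eGFP pool 2, so the background shares beside the collagen counts are themselves uncertain. Between MYB constructs the 0 calls over all genes became 3 between MYBQKI5 and MYBtr without MYBtr pool 3, and 1 between MYBQKI6 and MYBQKI5 without MYBQKI6 pool 1. The 1 gene called between Qk and LacZ suppression became 0 with the brightest probe set and in 6 of 8 fits without 1 array (all but Qk 5_2 and 9_1). Collagens called for the pool number were 16 (beside 34% of all genes), or 8 with the brightest probe set (beside 25.1%), and for the second number 1 (beside 5.98%), or 0 (beside 0.0648%). A gene mean over many probe sets can average out a change of 1 of them, as for Col4a2. Without the block the interval of Col6a1 reached past 2-fold in most construct comparisons, so that fit could not detect smaller differences there. Its differences between pools are part of the spread in that fit.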
